A study of Mus musculus with 12 samples.

Results

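The leukocyte integrin genes described here are 10 genes of the integrin family, Itgam, Itgax, Itgal, Itgad, Itgb2, Itga4, Itgb1, Itgb7, Itgav and Itgb3, each found in the deposited table through its gene symbol and its Entrez identifier. They make up 10 of the 23185 genes tested. They were read in splenic CD4+ T cells of mice, in 4 groups of 3 arrays. Cre+ cells (Lck-Cre+;Ikzf-/-) and Cre- cells (Lck-Cre-;Ikzf+/+) were activated for 24 hours through CD3, by an antibody bound to the plate, and CD28, by an antibody in solution, and untreated cells of both genotypes gave the baseline (0 hours). The series title names Ikaros, the zinc finger transcription factor that Ikzf1 encodes, as the deleted gene. Cre was under the control of Lck, a gene of the T lineage. No group carried Cre together with intact Ikaros, and none was cultured for 24 hours without the antibodies, so effects of Cre itself and of culture cannot be told apart from those of genotype and activation. The sources used here give neither the age nor the strain of the mice. Xist, a marker of female cells, was high on 1 or 2 of the 3 arrays of each group, so each group held more than 1 animal, but whether it held 3 is not stated, and p-values measure only the spread between these samples.

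Integrins are surface receptors made of 1 alpha and 1 beta chain that bind other cells or the extracellular matrix. Their binding strength is raised from inside the cell by talin and kindlin, proteins that attach to the tail of the beta chain. The beta 2 chain (Itgb2, CD18) pairs with Itgal to form LFA-1, the main adhesion receptor of T cells for ICAM proteins, and with Itgam (CD11b), Itgax (CD11c) or Itgad (CD11d), which are best known from myeloid, dendritic and NK cells. The alpha 4 chain (Itga4) pairs with beta 1 (Itgb1) as a receptor for VCAM1 and fibronectin, or with beta 7 (Itgb7) as the receptor for MAdCAM1 that guides lymphocytes to the gut. The alpha V chain (Itgav) pairs with beta 3 (Itgb3) as a receptor for vitronectin and with other beta chains.

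Itgam, Itgax and Itgad neighbour each other in the RefSeq gene order of chromosome 7, with no gene but pseudogenes between them. Of the 10 genes nearest to Itgam, 5 on each side, 3 were measured, namely Itgax, Itgad and Trim72. The promoters of Itgam and Itgax are shown because Itgam passed between genotypes at baseline and its neighbour Itgax did not. They are given 5′ to 3′ on the + strand from RefSeq, build GRCm38.p6, and run from 250 bases before to 50 bases after the annotated start of transcription, Itgam at chr7:128062390-128062689 and Itgax at chr7:128129300-128129599. Capitals mark the letters GAGGAA or, on the other strand, TTCCTC, the core that the myeloid factor PU.1 binds.
Itgam: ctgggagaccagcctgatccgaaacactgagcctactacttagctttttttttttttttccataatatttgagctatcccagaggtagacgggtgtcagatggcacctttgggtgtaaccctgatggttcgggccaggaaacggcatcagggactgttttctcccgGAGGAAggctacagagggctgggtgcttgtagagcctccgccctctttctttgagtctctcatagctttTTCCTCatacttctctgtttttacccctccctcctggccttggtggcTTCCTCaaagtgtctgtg
Itgax: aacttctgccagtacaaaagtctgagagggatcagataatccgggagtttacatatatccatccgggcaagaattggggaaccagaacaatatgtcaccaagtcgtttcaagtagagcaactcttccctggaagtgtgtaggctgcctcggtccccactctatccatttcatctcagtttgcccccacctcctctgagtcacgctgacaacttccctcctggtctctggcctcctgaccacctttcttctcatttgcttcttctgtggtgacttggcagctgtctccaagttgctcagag
The other members with a window held 2 (Itgav), 1 (Itgb1 and Itgb7) or 0 (Itga4). The Itgam window held 3 such matches, 84 and 15 bases before and 32 bases after the start, and the Itgax window held 0. At least 1 match was present in 28.3% of 27025 promoters of the same length. The letters TGGGAA, taken here as the Ikaros core and searched on both strands, were found in 25.5% of them. They were found in 0 of the 6 members with a promoter in the table, Itgam, Itgax, Itga4, Itgb1, Itgb7 and Itgav. Shorter forms such as GGGAA, which the Itgax window holds, were not counted. Matches describe letters in these windows only.

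All values below are on a log2 scale, as deposited after RMA, which corrects background, normalizes by quantiles and gives each gene 1 value. Ikzf1 read 10.14, 9.93 and 9.89 in activated Cre+ cells against 10.03, 10.22 and 10.08 in activated Cre- cells, and at baseline 10.66, 10.29 and 10.13 in Cre+ cells against 10.54, 10.52 and 10.54 in Cre- cells. Neither genotype comparison of it passed, so the deletion did not show in this single value per gene, which may cover undeleted exons, and the groups are named as labelled. All 7 measured T cell markers, Cd4 and Cd3e among them, read above a dim reference in every group, namely the 95th percentile of 1065 olfactory receptor genes, which lay between 3.73 and 3.92 on the 12 arrays. B cell, myeloid and dendritic cell markers also read above it at baseline, and their levels are given with the activation results. On both activated arrays numbered 3, the mean of 15 cell cycle genes was 8.38 (Cre+) and 8.76 (Cre-), against 6.25 to 6.88 on the other activated arrays. Results that use the activated groups were therefore also computed without those 2 arrays. In these bulk samples, fewer cells of a type and less RNA per cell cannot be told apart.

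At baseline, Itgam was the member that rose in Cre+ cells. It read 8.74, 8.47 and 8.28 in Cre+ cells against 6.23, 5.42 and 5.65 in Cre- cells. Every Cre+ value lay above every Cre- value. The difference was 2.73 on the log2 scale (SE 0.23, 95% interval 2.22 to 3.23), or 6.62-fold, with a limma adjusted p = 0.000335. It passed in all 22 alternative settings, at 2.55 to 2.96. Over all genes tested, 0.552% passed in this comparison (0.492% higher and 0.0604% lower in Cre+ cells), and 1 of the 10 members did. The members were chosen with earlier results of these data known, so this count is not a test against that share.

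No listed marker of myeloid, dendritic or NK cells, which can carry CD11b, passed between genotypes at baseline. Of all genes 0.552% passed, so the absence of calls is near that share and does not show equal amounts of these cells. The mean of 17 myeloid markers, among them Csf1r and Adgre1 of macrophages and Csf3r of granulocytes, was 4.94, 4.98 and 5.65 on Cre+ arrays and 5.47, 5.10 and 5.35 on Cre- arrays, and none of the 17 passed. Their summed linear level ran from 965 to 1697 in Cre+ cells and from 1156 to 1470 in Cre- cells, with 13 and 14 of them above the dim reference. On the Cre+ arrays Itgam was highest (8.74) where the myeloid mean was lowest (4.94), and lowest (8.28) where that mean was highest (5.65). On the Cre- arrays the order was the other way. There Itgam was highest (6.23) at the highest myeloid mean (5.47) and lowest (5.42) at the lowest (5.10). None of 8 dendritic and 7 NK cell markers passed either, with medians of -0.10 and 0.03 on the log2 scale. The NK markers ran from -1.07 to 0.13, and their summed linear level was 346 to 414 in Cre+ and 416 to 493 in Cre- cells. Neither of 2 CD8 T cell markers (differences of 0.04 and 0.37) and none of 11 B cell markers passed. The part of all these cells in the Itgam difference was not tested.

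The other 9 members differed between genotypes by -0.29 to 0.38 at baseline and none passed. Among the partners of Itgb2, Itgax read 5.71, 6.23 and 6.29 in Cre+ cells and 6.64, 6.18 and 6.28 in Cre- cells, a difference of -0.29 (95% interval -0.70 to 0.11). These groups overlapped. Itgal read 10.10, 10.07 and 10.19 in Cre+ cells and 10.25, 10.19 and 10.26 in Cre- cells, and Itgb2, their shared beta chain, differed by -0.04 (95% interval -0.30 to 0.22). Itgad stayed near the dim reference in both genotypes, at 3.78, 3.99 and 4.68 in Cre+ cells and 3.76, 3.99 and 4.17 in Cre- cells. The interval of Itgb3 (-0.55 to 1.32) and that of Itgb7 (-1.26 to 0.78) were the widest, and as fitted they include a difference of more than 2-fold. The fit pools the spread of all 4 groups, and both genes varied mostly in activated cells. The SD of Itgb7 was 0.91 (Cre+) and 1.00 (Cre-) in activated cells and 0.04 and 0.02 at baseline. That of Itgb3 was 0.60 and 1.07 in activated cells and 0.17 and 0.04 at baseline. The widths therefore do not measure the spread of the baseline arrays alone. For 4 of the 10 members (Itgam, Itga4, Itgb3 and Itgb7) the values of both genotypes did not overlap, against 16.2% of all genes.

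**Figure D1:**
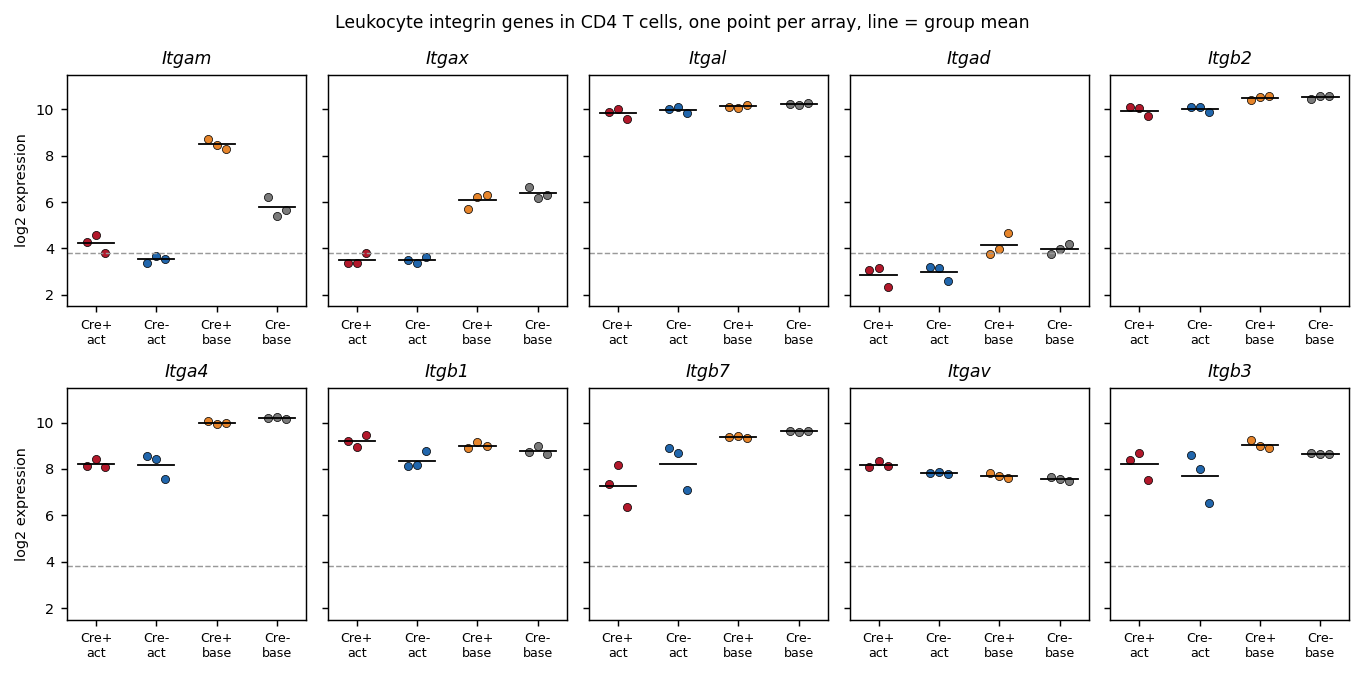
Log2 expression of the 10 integrin genes on each of the 12 arrays (1 point per array, 3 per group, black line at the group mean), with activated (act) groups left of baseline (base) groups and Cre+ left of Cre-; the dashed line at 3.81 is the mean dim reference. Itgam separates the genotypes at baseline, at 8.28 to 8.74 in Cre+ and 5.42 to 6.23 in Cre- cells, and reads 3.38 to 4.59 in both activated groups.

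After activation, no member passed between genotypes, where 0.729% of all genes did (0.63% higher and 0.0992% lower), and 3 members had an unadjusted p under 0.05. The nearest was Itgb1, the beta chain shared by many matrix receptors. It read 9.21, 8.96 and 9.45 in activated Cre+ cells against 8.13, 8.17 and 8.77 in activated Cre- cells. All 3 Cre+ values lay above the Cre- values. The difference was 0.85 (SE 0.18, 95% interval 0.46 to 1.25, limma adjusted p = 0.0675), and without the activated arrays numbered 3 it was 0.94 (limma adjusted p = 0.0133). It passed in 6 of the 22 alternative settings, where the limma adjusted p ran from 0.000165 to 0.465.

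Itgam read 4.30, 4.59 and 3.80 in activated Cre+ cells against 3.38, 3.67 and 3.54 in activated Cre- cells, a difference of 0.70 (95% interval 0.19 to 1.20, limma adjusted p = 0.349). None of the Cre- values and 2 of the 3 Cre+ values lay above the dim reference, so this difference compares readings at the low end of the scale. Itgav read 8.07, 8.35 and 8.12 in activated Cre+ cells and 7.84, 7.87 and 7.79 in activated Cre- cells, also without overlap, a difference of 0.35 (limma adjusted p = 0.243). The values of both genotypes did not overlap for these 3 members, Itgb1, Itgam and Itgav, against 10.8% of all genes. No myeloid, dendritic, NK or B cell marker passed between genotypes after activation, near the share of all genes (0.729%). Their median differences were 0.08, 0.23, 0.19 and 0.85, and that of the T cell markers was -0.07. The summed linear level of the NK markers was 530 to 853 in Cre+ and 295 to 354 in Cre- cells. The part of these cells in the genotype differences after activation was not tested.

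Itgb7 was more variable. It read 7.35, 8.17 and 6.34 in activated Cre+ cells and 8.92, 8.69 and 7.08 in activated Cre- cells, lowest on the array numbered 3 of each genotype, where the cell cycle genes read highest, and the part of that in the values was not tested. The difference was -0.94 with all arrays (95% interval -1.97 to 0.08, limma adjusted p = 0.720) and -1.04 without the arrays numbered 3 (limma adjusted p = 0.0487). It was -1.52 without Cre- activated array 3 alone (limma adjusted p = 0.0826), and -0.47 without Cre+ activated array 3 alone and -0.60 without Cre- activated array 1 (limma adjusted p = 0.973 and 0.969). Its usual alpha chain Itga4 differed by 0.01 (95% interval -0.44 to 0.47), Itgal by -0.15, Itgb2 by -0.09 and Itgax by 0.00, where Itgax read at or below the dim reference in both groups.

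**Figure D2:**
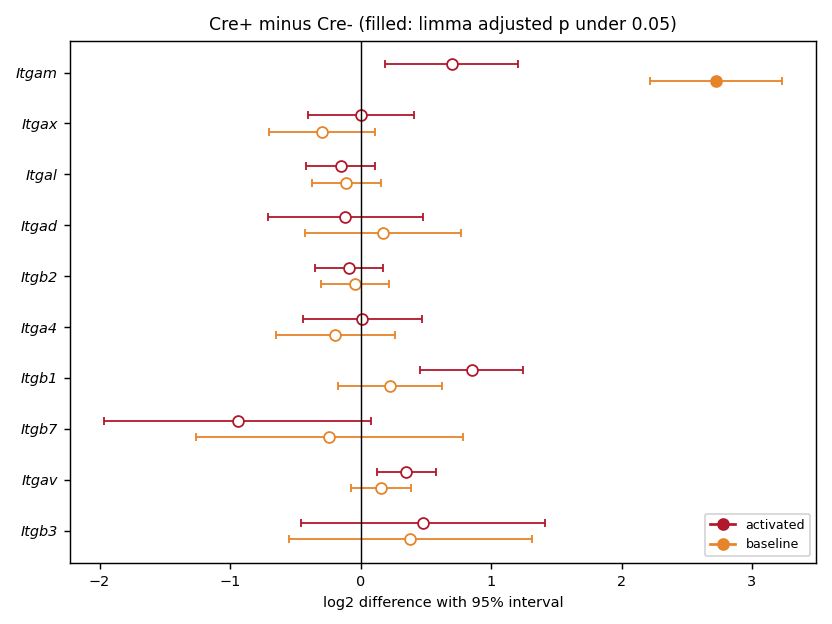
Log2 differences, Cre+ minus Cre-, of the 10 integrin genes in activated cells (red, upper of each pair) and at baseline (orange, lower), with 95% intervals from the limma fit of all 12 arrays; filled points passed at an adjusted p under 0.05. Itgam at baseline (2.73) is the 1 filled point.

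Several of these genes fell on activation in both genotypes. In Cre+ cells 7 of the 10 members passed, 6 lower and 1 higher, where 20.7% of all genes passed (10.1% higher and 10.6% lower). In Cre- cells 5 passed, all lower, where 18.5% of all genes did (9.39% higher and 9.1% lower). The median difference of the members was -1.06 in Cre+ and -0.97 in Cre- cells, beside -0.02 and 0.00 over all genes. In each genotype 9 members had activated and baseline values that did not overlap, against 36.7% of all genes in Cre+ and 35.1% in Cre- cells.

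Among the partners of beta 2, Itgam and Itgax fell most. Itgam averaged 4.23 ± 0.40 in activated against 8.49 ± 0.23 in baseline Cre+ cells (SD, n = 3 each), a difference of -4.27 (SE 0.23, limma adjusted p = 5.22e-07). In Cre- cells it averaged 3.53 ± 0.15 after activation and 5.77 ± 0.42 at baseline, a difference of -2.24 (limma adjusted p = 6.98e-05). Itgax averaged 3.52 ± 0.25 in activated against 6.07 ± 0.32 in baseline Cre+ cells, and 3.51 ± 0.13 against 6.37 ± 0.24 in Cre- cells. Its differences of -2.56 and -2.86 passed (limma adjusted p = 4.35e-06 and 2.04e-06). None of the activated Itgax values exceeded its array's dim reference, and so the folds of these genes compare a reading with the low end of the scale.

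Markers of other cells moved with these falls, where 10.6% of all genes fell in Cre+ and 9.1% in Cre- cells. Of the 17 myeloid markers, 11 fell in Cre+ and 12 in Cre- cells, and their mean was 4.06 to 4.16 on activated against 4.94 to 5.65 on baseline Cre+ arrays and 3.81 to 4.02 on activated against 5.10 to 5.47 on baseline Cre- arrays. Their summed linear level was 411 to 519 on activated Cre+ and 322 to 386 on activated Cre- arrays. After activation 9 of the 17 read above the dim reference in each genotype, while Adgre1 and Mrc1 no longer did. Of the 8 dendritic cell markers, 4 fell in Cre+ and 5 in Cre- cells, for example Siglech, with differences of -3.94 and -4.14, and Cd209a, with -2.29 and -2.75. Of the 7 NK cell markers, 3 fell and 1 rose in Cre+ cells and 4 fell in Cre- cells. The part of these cells in the falls of Itgam and Itgax was not tested.

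B cell markers moved further, where 10.6% of all genes fell in Cre+ and 9.1% in Cre- cells. Of 11 measured, 7 fell in Cre+ cells (median difference of the list -1.64) and 10 in Cre- cells (median -2.81). Their mean was 5.17 to 6.69 on activated against 7.60 to 7.68 on baseline Cre+ arrays, and 4.69 to 6.02 on activated against 7.72 to 7.95 on baseline Cre- arrays. Their summed linear level was 527 to 1780 on activated against 2744 to 2920 on baseline Cre+ arrays, and 327 to 1029 on activated against 3040 to 3519 on baseline Cre- arrays. All 11 read above the dim reference at baseline, and 9 in activated Cre+ and 10 in activated Cre- cells, Cd79a, Cd79b and Ms4a1 among them. B cells also carry Itgb2, Itga4 and Itgb7, and the part of B cells in the activation differences of these genes was not tested.

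**Figure D3:**
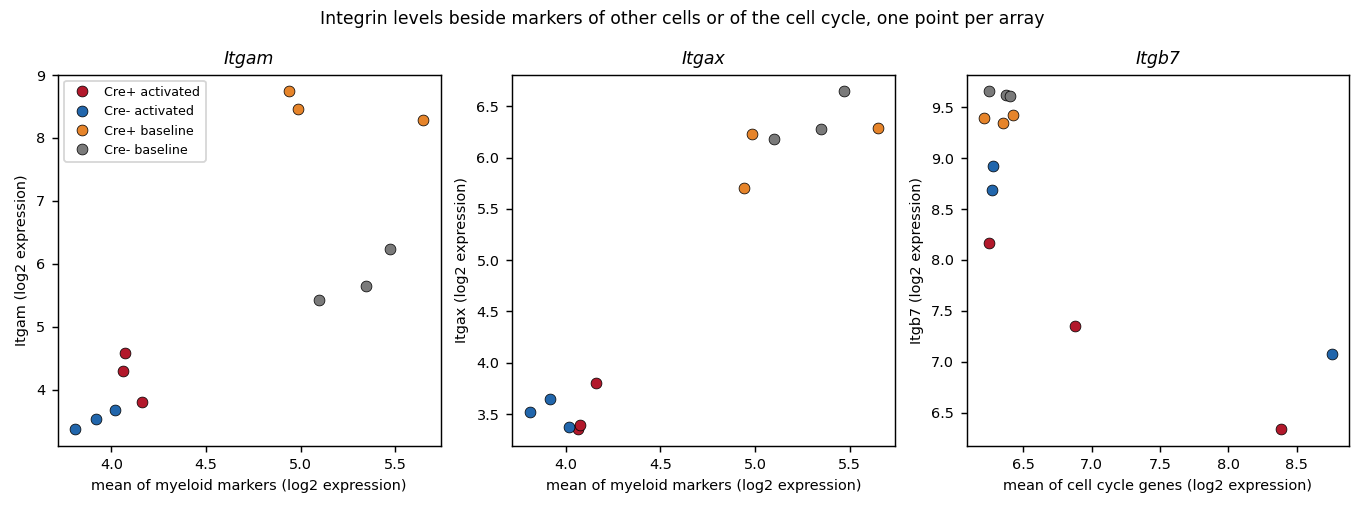
Log2 expression of Itgam (left) and Itgax (middle) against the mean of 17 myeloid markers, and of Itgb7 (right) against the mean of 15 cell cycle genes, 1 point per array coloured by group. At baseline the myeloid means of Cre+ arrays (4.94 to 5.65) and Cre- arrays (5.10 to 5.47) overlap while their Itgam levels do not, and the lowest Itgb7 value of each activated group is on the array with the highest cell cycle mean.

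Of the chains of LFA-1, Itgb2 fell in both genotypes and Itgal passed in neither. Itgb2 read 10.09, 10.04 and 9.70 in activated against 10.42, 10.54 and 10.55 in baseline Cre+ cells, a fall of 0.56 on the log2 scale that passed (limma adjusted p = 0.00611). In Cre- cells it read 10.09, 10.10 and 9.89 after activation and 10.46, 10.60 and 10.58 at baseline, and it fell by 0.52 (limma adjusted p = 0.0103). Itgal differed by -0.29 in Cre+ (95% interval -0.55 to -0.02) and -0.25 in Cre- cells (-0.51 to 0.02) and did not pass. The Cre+ difference of Itgal was -0.17 without Cre+ activated array 3, and it passed without Cre+ activated array 2 (-0.38, limma adjusted p = 0.0467) and with array weights (limma adjusted p = 0.0381). The 7 T cell markers had median differences of -0.50 in Cre+ cells, where 4 fell, and -0.42 in Cre- cells, where 1 fell. Of all genes, 10.6% fell in Cre+ and 9.1% in Cre- cells. Itgad, close to the dim reference at baseline, read below it on all activated arrays and fell, by 1.28 in Cre+ (limma adjusted p = 0.00637) and by 0.99 in Cre- cells (limma adjusted p = 0.0258). The Itgad call in Cre- cells was lost without Cre- baseline array 2 or 3 or Cre- activated array 3 (limma adjusted p = 0.0698, 0.0962 and 0.0936) and with sex as a covariate (limma adjusted p = 0.0510).

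Itga4 fell in both genotypes. It read 8.11, 8.42 and 8.07 in activated against 10.09, 9.94 and 9.97 in baseline Cre+ cells. The difference was -1.80 (SE 0.21, limma adjusted p = 0.000137). In Cre- cells it read 8.55, 8.43 and 7.57 after activation and 10.19, 10.22 and 10.17 at baseline, a difference of -2.01 (limma adjusted p = 7.26e-05). In both genotypes the activated values stood more than 1 log2 unit below all baseline values.

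Of the partners of Itga4, Itgb7 fell by 2.10 in Cre+ cells, to 7.35, 8.17 and 6.34 in activated against 9.40, 9.43 and 9.34 in baseline cells (limma adjusted p = 0.00797). In Cre- cells it differed by -1.40, at 8.92, 8.69 and 7.08 in activated against 9.62, 9.61 and 9.66 in baseline cells (limma adjusted p = 0.0587). The Cre- difference was -0.83 without the activated arrays numbered 3, where it passed (limma adjusted p = 0.0134), and in that fit the Cre+ difference was -1.63. Itgb1 differed by 0.20 in Cre+ cells (95% interval -0.20 to 0.59) and by -0.43 in Cre- cells (-0.83 to -0.04), and passed in neither. Without the activated arrays numbered 3 the Cre- difference of Itgb1 was -0.64 and passed (limma adjusted p = 0.00770).

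Itgav was the member that rose on activation. In Cre+ cells it read 8.07, 8.35 and 8.12 after activation and 7.82, 7.70 and 7.61 at baseline, a difference of 0.47 (SE 0.10, limma adjusted p = 0.00767). In Cre- cells it read 7.84, 7.87 and 7.79 after activation and 7.64, 7.56 and 7.47 at baseline, a difference of 0.28 that did not pass (limma adjusted p = 0.0914). Itgb3 differed by -0.85 in Cre+ and -0.95 in Cre- cells without passing, and its activated values ran from 7.53 to 8.69 in Cre+ and from 6.54 to 8.62 in Cre- cells, each lowest on the array numbered 3. Without those arrays the differences were -0.51 and -0.36. Platelets carry much Itgb3, and of 7 platelet and erythroid markers none read above the dim reference in activated Cre+ cells and 1 (Gp9) in each of the other groups.

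**Figure D4:**
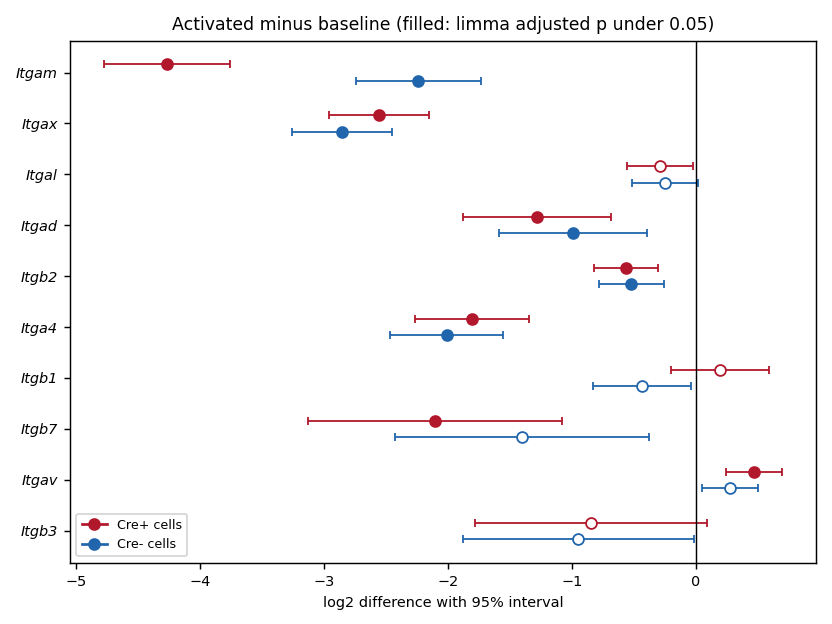
Log2 differences, activated minus baseline, of the 10 integrin genes in Cre+ cells (red, upper of each pair) and Cre- cells (blue, lower), with 95% intervals from the limma fit of all 12 arrays; filled points passed at an adjusted p under 0.05. Itgam has the most negative difference in Cre+ cells (-4.27) and Itgax in Cre- cells (-2.86), and Itgav lies above 0 in both.

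The responses of both genotypes were compared directly as the activation difference in Cre+ cells minus that in Cre- cells. No member passed, and 0.00863% of all genes did. Itgam had a difference of responses of -2.03 (SE 0.33, 95% interval -2.75 to -1.31, unadjusted p = 5.41e-05, limma adjusted p = 0.125). It passed in only 2 of the 22 alternative settings, without Cre+ activated array 2 (limma adjusted p = 0.0333) and with array weights (limma adjusted p = 0.0103). Over the 22 settings the limma adjusted p reached 0.416. After activation, none of the Cre- and 2 of the 3 Cre+ values of Itgam lay above the dim reference. The low end of the scale therefore bounds the fall that can be read, from baseline means of 5.77 in Cre- and 8.49 in Cre+ cells. The part of this bound in the difference of responses was not tested. Itgb1 had a difference of responses of 0.63 (95% interval 0.07 to 1.19), the other member with an unadjusted p under 0.05. The remaining 8 members lay between -0.70 and 0.30.

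Over the 4 groups, Itgam was highest in baseline Cre+ cells, followed by baseline Cre- cells, and both activated groups were lowest. The genes with the pattern most like it, by the root mean square difference of centred log2 values over the 12 arrays, were Oas2 (0.65), Eya2 (0.82), Trgj2 (0.89), Dntt (0.89) and Ggt5 (0.90). Oas2, an interferon-induced antiviral enzyme gene, averaged 6.53 ± 0.43 in activated Cre+ and 4.82 ± 0.33 in activated Cre- cells, and at baseline 9.25 ± 0.15 in Cre+ against 7.42 ± 0.17 in Cre- cells (SD, n = 3 each). Oas2 was the 1 gene of these 5 that passed between genotypes at baseline, with a difference of 1.83 (limma adjusted p = 0.00209). The baseline differences of Eya2 (0.74), Trgj2 (0.54), Dntt (0.88) and Ggt5 (0.59) did not pass (limma adjusted p = 0.180 to 0.746), and all 5 genes fell on activation in both genotypes. The 5 genes were picked for their likeness to Itgam on these same arrays. Their falls and the Oas2 call therefore follow in part from that choice and are not separate findings. Dntt encodes the polymerase that adds bases at antigen receptor joints in lymphocyte precursors. Trim72, the third measured neighbour of Itgam, differed between genotypes by -0.14 after activation and -0.08 at baseline and did not pass, with group means of 3.23 to 3.46, below the dim reference, so these values do not show whether it differed.

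Among 16 integrin subunits outside the 10 members, 2 (Itga5 and Itga9) passed as higher in Cre+ cells in both states. Of all genes, 0.552% passed at baseline and 0.729% after activation. No subunit passed as lower, and the median difference of the 16 was -0.12 at baseline and 0.06 after activation. Itga5, the alpha chain of the classical fibronectin receptor, read 6.81, 6.52 and 6.78 in activated Cre+ cells against 5.72, 5.25 and 5.65 in activated Cre- cells. The difference was 1.16 (SE 0.15, limma adjusted p = 0.00328). At baseline it read 6.05, 5.93 and 6.02 in Cre+ and 5.12, 5.15 and 4.76 in Cre- cells, a difference of 0.99 (limma adjusted p = 0.0140). Itga9, which also pairs with Itgb1, read 5.93, 5.49 and 5.88 in activated Cre+ cells against 4.28, 4.45 and 4.65 in activated Cre- cells, a difference of 1.31 (limma adjusted p = 0.00144). At baseline Itga9 differed by 0.86 (limma adjusted p = 0.0237). In both genes all Cre+ values lay above all Cre- values of the same state. When only the 6 activated arrays were fitted, neither passed after activation (limma adjusted p = 0.124 for Itga5 and 0.102 for Itga9), and at baseline Itga5 lost its call without Cre- array 3 or any 1 Cre+ array, and Itga9 without Cre- array 1 or 2 or any 1 Cre+ array, at an adjusted p of 0.0581 to 0.124.

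Of 38 measured genes of integrin activation and its adaptors, 1 (Vcl) passed between genotypes in each state. Of all genes, 0.552% passed at baseline and 0.729% after activation. Vcl encodes vinculin, which links talin to actin at adhesion sites. It read 7.10, 6.85 and 6.92 in activated Cre+ cells against 5.02, 5.10 and 5.64 in activated Cre- cells. The difference was 1.71 (SE 0.16, limma adjusted p = 0.000561). At baseline the difference was 1.43 (limma adjusted p = 0.00126), from 6.80, 6.53 and 6.68 in Cre+ and 5.34, 5.12 and 5.26 in Cre- cells. The groups did not overlap in either state, and the call after activation was lost when only the 6 activated arrays were fitted (limma adjusted p = 0.0769). None of 21 measured integrin ligand genes passed between genotypes in either state, which is near those shares of all genes.

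**Figure D5:**
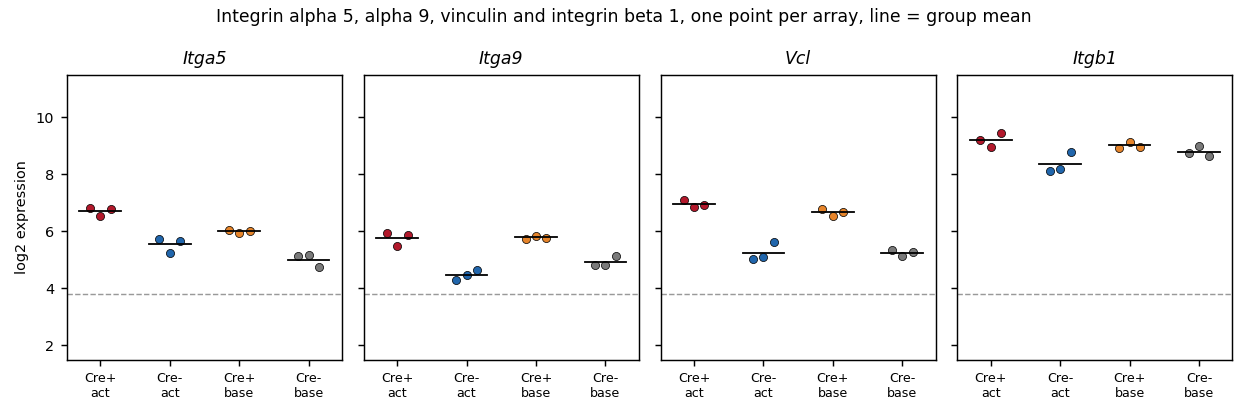
Log2 expression of Itga5, Itga9, Vcl and Itgb1 on each of the 12 arrays (1 point per array, black line at the group mean), with activated (act) groups left of baseline (base) groups and Cre+ left of Cre-; the dashed line at 3.81 is the mean dim reference. Cre+ values lie above Cre- values of the same state in Itga5, Itga9 and Vcl, as they do after activation in Itgb1.

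On activation, more of the genes of integrin activation and its adaptors fell than rose. In Cre+ cells 15 of the 38 fell and 1 rose, where 10.6% of all genes fell and 10.1% rose. In Cre- cells 13 of the 38 fell and 1 rose, where 9.1% of all genes fell and 9.39% rose. The medians were -0.36 and -0.26 beside -0.02 and 0.00 over all genes. Apbb1ip, which encodes the RIAM adaptor that brings talin to the membrane, fell by 1.13 in Cre+ and by 1.10 in Cre- cells. Rap1gap2 and Sipa1, which switch off the small GTPase Rap1, fell as well, by 1.77 and 0.97 in Cre+ cells and by 1.34 and 0.87 in Cre- cells. Tln1, the talin gene, fell by 0.85 in Cre- cells, where it was among the 4 genes named. Its difference in Cre+ cells is not given here, so no contrast of the genotypes is meant.

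Of the 21 ligand genes, 3 fell and 1 rose in Cre+ cells, and 4 fell and 1 rose in Cre- cells, to be read beside the same shares of all genes. Icam1, a ligand of LFA-1 and Mac-1, rose by 1.32 in Cre+ cells (limma adjusted p = 0.00111) and by 0.86 in Cre- cells (limma adjusted p = 0.0138). The difference of its responses was 0.46 and did not pass. Icam2 fell by 1.00 in Cre+ and by 0.90 in Cre- cells. Vcam1, the ligand of the alpha 4 integrins on stromal and endothelial cells, fell by 1.65 in Cre+ cells and fell by 2.06 in Cre- cells, alongside the falls in markers of other cells given above. Among the 16 other subunits, 3 fell and 1 rose in Cre+ cells, where 20.7% of all genes passed, and 6 fell and 1 rose in Cre- cells, where 18.5% did. Itga2 fell, with differences of -0.93 in Cre+ (limma adjusted p = 0.00481) and -1.52 in Cre- cells (limma adjusted p = 0.000245), and both calls held in all 21 alternative settings. Itgae, whose product CD103 pairs with beta 7, fell by 1.20 in Cre+ and by 0.59 in Cre- cells, where the call was lost in 8 of 21 alternative settings. Itga6 fell by 1.33 in Cre+ and by 1.01 in Cre- cells, and Itga5 rose by 0.71 in Cre+ and by 0.53 in Cre- cells, where the Itga6 call was lost in 3 and the Itga5 call in 7 of 22 settings.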

How the data were processed

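Gene expression was measured on 12 Mouse Gene 2.0 ST arrays, 3 in each of 4 groups set by the genotype and state labels. The authors deposited log2 expression values made with RMA, affy 1.36.1 and R 2.15.1, per the submitters' processing notes. Neither the chip definition file nor the build is named in the sources used here. The values ran from 0.54 to 13.2. Of 25206 probe sets, 23185 paired with exactly 1 gene through their Entrez identifiers and were tested, and the other 2021 were left out.

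Group means were fitted over all 12 arrays with limma 3.58.1 in R 4.3.3, without covariates (residual degrees of freedom 8, prior 3.55), and 5 contrasts were tested two-sided. Genes with an adjusted p under 0.05 passed (Benjamini-Hochberg, all 23185 genes), at any fold. The SE and 95% intervals are the moderated ones, and SD values cover the 3 arrays of a group. The number of arrays limits the precision. The fit was tested on simulated data with known changes.

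The members and gene lists were chosen with earlier results of these data known. Named genes were the 10 members, Ikzf1, up to 4 called members of each list with the smallest adjusted p per comparison, the measured neighbours of Itgam (5 genes on each side) and the 5 genes most like it. Members of the lists of other cell types were named as examples of level. The alternatives are given with their effect in the closing section. Sex as a covariate, read from Xist, was added after seeing the data. Same-numbered arrays of different groups had deviations that correlated at -0.0948 to 0.728, and not every pair exceeded 0.1, so the numbers were not taken to pair the samples.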

Additional observations from a re-analysis of the deposited data

How the results depend on the processing

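Itgam was called higher in Cre+ cells at baseline in all 22 alternative settings, and the activation falls of Itgam, Itga4 and Itgb2 were called in both genotypes in all 22. No member's called direction was reversed. At baseline, 1 member passed in every setting, while the genes called, 128 with all arrays, numbered 321 with array weights, 83 with a mean of at least 5, 251 with only the arrays compared, 266 without the activated arrays numbered 3, 85 with a sex covariate, added once the data had been seen, and 50 to 199 when each array was left out in turn. After activation, the members called were 3 with array weights (Itgb1, Itgb7 and Itgam), 1 with a mean of at least 5 and 1 with quantile normalization (Itgb1), 2 without the activated arrays numbered 3 (Itgb1 and Itgb7) and 0 to 1 on leaving out each array. The genes called there, 169 with all arrays, were 2416 with array weights, 9 with only the arrays compared, which fits fewer samples, 112 with the sex covariate and 72 to 283 on leaving out each array. For activation in Cre- cells 8 members were called with array weights against 5, and for activation in Cre+ cells 8292 genes with array weights against 4795, and 3148 to 5922 on leaving out each array. For the difference of responses, genes called were 2, against 143 with array weights, 0 with a mean of at least 5, 11 without the activated arrays numbered 3, 4 with the sex covariate and 2 to 25 on leaving out each array; the members called were 1 with array weights and 0 to 1 on leaving out each array (Itgam both times). The replicate numbers did not meet the condition for pairing, and with the replicate block 5 genes were called for the difference of responses, and Itgb7 passed on activation in Cre- cells (limma adjusted p = 0.0261). Other than where a setting leaves out samples or genes, the cause of these shifts was not tested. Readings near the dim reference limit Itgad and Trim72 in all groups and Itgam and Itgax after activation.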
